A study of Homo sapiens with 12 samples.

Results

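The genes described here encode the enzymes and adaptors that place ubiquitin on histone H2B or take it off. They were taken by gene name and number 10 of the 60666 human gene rows: RNF20, RNF40, UBE2A, UBE2B, WAC, USP22, ATXN7L3, ENY2, USP44 and USP49. Their levels come from poly(A) RNA of DLD-1, an established line of human colorectal adenocarcinoma cells. SPT6-AID cells (genotype SPT6-AID OsTIR1) carried an auxin-inducible degron on SPT6, which reassembles nucleosomes behind elongating RNA polymerase II. PAF1-AID cells (genotype PAF1-AID OsTIR1) carried the degron on PAF1, the namesake subunit of an elongation complex that moves with the polymerase. Each line was sampled after 0, 2 and 6 h in 500 µM auxin, with 2 libraries in each of the 6 groups. All groups, the 0 h ones included, expressed the plant receptor OsTIR1 constitutively, which hands the tagged protein to the proteasome once auxin is present. No group of untagged cells in auxin was analysed here, so an effect of auxin itself cannot be told apart from loss of the tagged protein. The labels do not say whether each line is 1 clone or whether the libraries of a group came from separate cultures. The p-values therefore measure only the spread between these libraries, pooled over the 6 groups, and that spread may be technical.

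Ubiquitin is joined to a lysine in the C-terminal tail of H2B during transcription. RNF20 and RNF40 form the E3 ligase, UBE2A and UBE2B are the closely related E2 enzymes that carry the ubiquitin, and WAC is an adaptor that couples the ligase to RNA polymerase II. The PAF1 complex stimulates this reaction through its RTF1 subunit, and the mark in turn favours methylation of histone H3 by the SET1 and MLL complexes and by DOT1L. Removal is carried out in part by the deubiquitylase module of the SAGA coactivator, in which USP22 is the protease and ATXN7L3 and ENY2 hold it in its active form. USP44 and USP49 are further ubiquitin proteases that act on H2B.

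Libraries held 31957953 to 115904780 counts in all, and the shallowest was replicate 2 of SPT6-AID 6h. Of the 10 colorectal epithelium markers, VIL1 reached at most 0.239 CPM and LGALS4 at most 0.605 CPM in any library, while the list summed to 3333 to 6245 CPM, where CPM is the count per library size in human counts after TMM scaling. Fibroblast markers summed to 0.618 to 3.51 CPM, with COL1A2 and LUM at 0, endothelial markers to 0.390 to 2.41 CPM, and blood cell markers to 7.56 to 41.3 CPM, nearly all of it HBB. The degron removes protein, so the mRNA of the tagged gene is no check of the labels: SUPT6H, which encodes SPT6, changed by 0.15 ± 0.11 on the log2 scale in SPT6-AID 6h against 0h (edgeR adjusted p = 0.349), and PAF1 by -0.14 ± 0.12 in PAF1-AID 6h against 0h (edgeR adjusted p = 0.512). Errors of log2 fold changes are standard errors, and adjusted p-values are from edgeR's quasi-likelihood test with Benjamini-Hochberg adjustment over the 20791 genes tested, with a threshold of 0.05. In bulk RNA, fewer cells of a kind and less RNA per cell cannot be told apart.

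After 6 h of SPT6 depletion, the RNAs of 3 members fell: the E2 enzyme UBE2B, the adaptor WAC and the SAGA protease USP22. After 6 h of PAF1 depletion only UBE2B passed the test among the 10, and none passed as higher in either line. The counts were thus 3 of 10 in SPT6-AID 6h against 0h, where 25.2% of all genes tested were called and 16.4% were called lower, and 1 of 10 in PAF1-AID 6h against 0h, where 10.9% of all genes were called and 6.7% were called lower. These shares lie near the background of their comparisons and are not a result about the members as a group. The median log2 fold change of the members was -0.11 in SPT6-AID 6h against 0h, beside 0.04 over all genes tested, and -0.18 in PAF1-AID 6h against 0h, beside 0.02. All 10 members passed the filter on low counts, although USP44 did so with 1 to 15 counts per library.

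**Figure D1:**
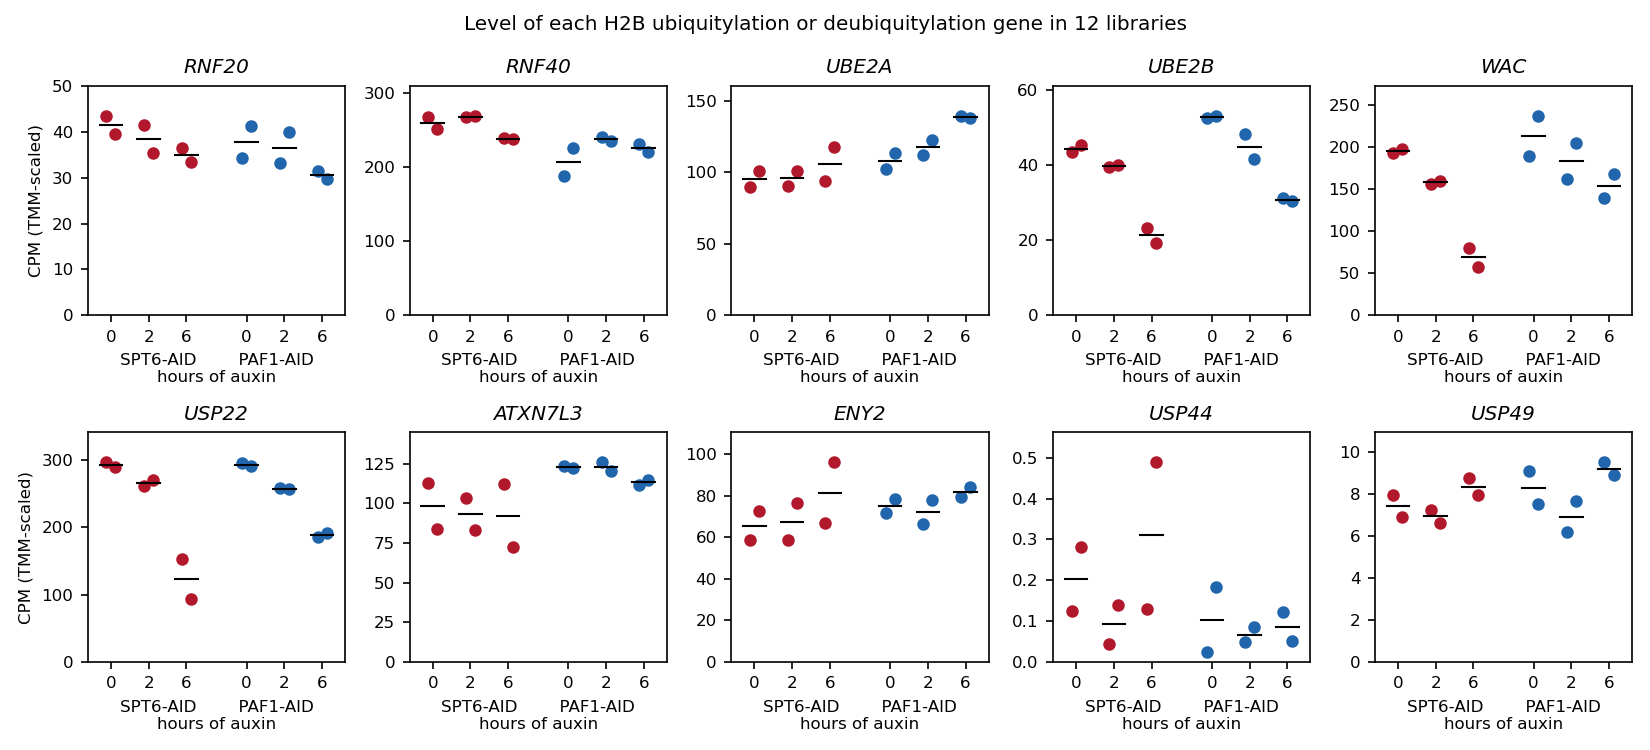
Level of each of the 10 genes in TMM-scaled CPM (vertical axis, from 0) in all 12 libraries, by line and hours of auxin (horizontal axis). Each point is 1 library and each bar the mean of 2; the points of UBE2B, WAC and USP22 in SPT6-AID 6h lie far under those of SPT6-AID 0h, while no such gap is seen for RNF40, ATXN7L3 or USP49.

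Before auxin the members differed widely in level. Per kilobase of the deposited transcript length, USP22 led with 43.3 ± 0.4 CPM per kb in PAF1-AID 0h and 43.3 ± 0.8 CPM per kb in SPT6-AID 0h (SD, n = 2 each). RNF40 followed with 32.9 ± 4.4 CPM per kb in PAF1-AID 0h and 41.3 ± 1.9 CPM per kb in SPT6-AID 0h. ATXN7L3, UBE2A, WAC and UBE2B formed a middle group, between 16.7 and 23.2 CPM per kb in PAF1-AID 0h and between 14.2 and 18.6 CPM per kb in SPT6-AID 0h. Within it ATXN7L3 and UBE2A overlapped in SPT6-AID 0h and WAC and UBE2B overlapped in PAF1-AID 0h, so the order of these neighbours was not resolved, while UBE2A lay above WAC and UBE2B in all 4 of the 0 h libraries. ENY2 stood at 11.1 ± 0.7 CPM per kb in PAF1-AID 0h and 9.66 ± 1.48 CPM per kb in SPT6-AID 0h, and RNF20 at 8.06 ± 1.05 CPM per kb in PAF1-AID 0h and 8.87 ± 0.58 CPM per kb in SPT6-AID 0h, so these neighbours overlapped in SPT6-AID cells. USP49 was far lower, at 0.761 ± 0.102 CPM per kb in PAF1-AID 0h and 0.681 ± 0.070 CPM per kb in SPT6-AID 0h, and USP44 was lowest, at 0.0192 ± 0.0211 CPM per kb in PAF1-AID 0h and 0.0377 ± 0.0204 CPM per kb in SPT6-AID 0h. The deposited transcript length was 12780 bases for WAC and 6784 bases for ENY2, so a gene whose length includes seldom used exons is understated on this scale. None of the 10 was called between the lines at 0 h, a comparison in which 0.0337% of all genes were called. The nearest to a difference was RNF40, with a log2 fold change of -0.33 ± 0.12 in PAF1-AID 0h against SPT6-AID 0h (edgeR unadjusted p = 0.0184, adjusted p = 0.654), and its PAF1-AID 0h libraries (187 and 226 CPM) lay under both SPT6-AID 0h libraries (268 and 251 CPM).

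The E2 enzymes UBE2A and UBE2B are near copies of each other as proteins, and the first 150 coding bases of each are shown because their reads have to be told apart for the results that follow. UBE2A lies at chrX:119574467-119591083 and UBE2B at chr5:134371179-134391992, both on the plus strand of GRCh38 in GENCODE 29. The stretches run from chrX:119574712-119575399 and chr5:134371596-134376693 across introns that are not shown, and capitals mark the 34 bases that differ.
UBE2A: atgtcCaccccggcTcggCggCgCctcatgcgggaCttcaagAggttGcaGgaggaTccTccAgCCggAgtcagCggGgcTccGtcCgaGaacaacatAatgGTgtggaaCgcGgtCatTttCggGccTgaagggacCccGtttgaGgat
UBE2B: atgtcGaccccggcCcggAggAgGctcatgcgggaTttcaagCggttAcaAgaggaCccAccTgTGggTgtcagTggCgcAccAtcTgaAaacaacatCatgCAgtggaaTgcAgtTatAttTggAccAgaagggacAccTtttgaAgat
Both coding sequences have 456 bases, of which 367 are identical (80.5%), and the longest identical run is 25 bases. The untranslated parts were not compared.

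UBE2B had 43.5 and 45.3 CPM in SPT6-AID 0h, 39.5 and 40.1 CPM in SPT6-AID 2h, and 23.3 and 19.3 CPM in SPT6-AID 6h. It had 52.6 and 53.1 CPM in PAF1-AID 0h, 48.3 and 41.6 CPM in PAF1-AID 2h, and 31.1 and 30.4 CPM in PAF1-AID 6h. In both lines the 6 h libraries lay under every earlier library of the line, and the 2 h libraries lay between. The log2 fold change at 6 h was -1.05 ± 0.13 in SPT6-AID cells (edgeR adjusted p = 0.000458) and -0.78 ± 0.13 in PAF1-AID cells (edgeR adjusted p = 0.00592). Without replicate 3 of PAF1-AID 6h the log2 fold change in PAF1-AID cells was still -0.78, but the call did not hold with 1 library left in that group. The difference between the lines' responses at 6 h was -0.27 ± 0.19 with a 95% interval of -0.69 to 0.14 (edgeR adjusted p = 0.573), so a difference in either direction was not resolved.

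UBE2A had 89.9 and 101 CPM in SPT6-AID 0h, 90.6 and 101 CPM in SPT6-AID 2h, and 94.1 and 118 CPM in SPT6-AID 6h. It had 102 and 114 CPM in PAF1-AID 0h, 112 and 123 CPM in PAF1-AID 2h, and 139 and 138 CPM in PAF1-AID 6h. The SPT6-AID groups overlapped, while both PAF1-AID 6h libraries lay above the earlier ones. The log2 fold change was 0.15 ± 0.14 in SPT6-AID 6h against 0h (95% interval -0.16 to 0.45, edgeR adjusted p = 0.472) and 0.36 ± 0.14 in PAF1-AID 6h against 0h (95% interval 0.05 to 0.66, edgeR adjusted p = 0.131), and neither passed. Exons of UBE2A share 956 bases with NKRF on the other strand, and the strand setting of the counting is not given in the sources used here, so reads there cannot be told apart. NKRF, a repressor of NF-kappa-B target genes, fell at 6 h against 0 h, with log2 fold changes of -1.27 ± 0.17 in SPT6-AID cells (edgeR adjusted p = 0.00063) and -1.01 ± 0.17 in PAF1-AID cells (edgeR adjusted p = 0.00575).

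The ratio of the E2 genes was higher in every 6 h library than in any 0 h library of its line. The ratio of UBE2A to UBE2B in CPM per kb was 1.24 and 1.34 in SPT6-AID 0h, 1.37 and 1.51 in SPT6-AID 2h, and 2.41 and 3.64 in SPT6-AID 6h. It was 1.17 and 1.28 in PAF1-AID 0h, 1.39 and 1.77 in PAF1-AID 2h, and 2.68 and 2.71 in PAF1-AID 6h. In both lines the 3 time points did not overlap and ran upward. The summed level of both genes was 25.6 and 28.8 CPM per kb in SPT6-AID 6h, against 31.2 and 33.9 CPM per kb in SPT6-AID 0h. In PAF1-AID cells the sum was 36.8 and 36.2 CPM per kb at 6 h, against 36.6 and 38.9 CPM per kb at 0 h, so these groups overlapped. Ratios and sums are given as descriptions and were not tested.

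**Figure D2:**
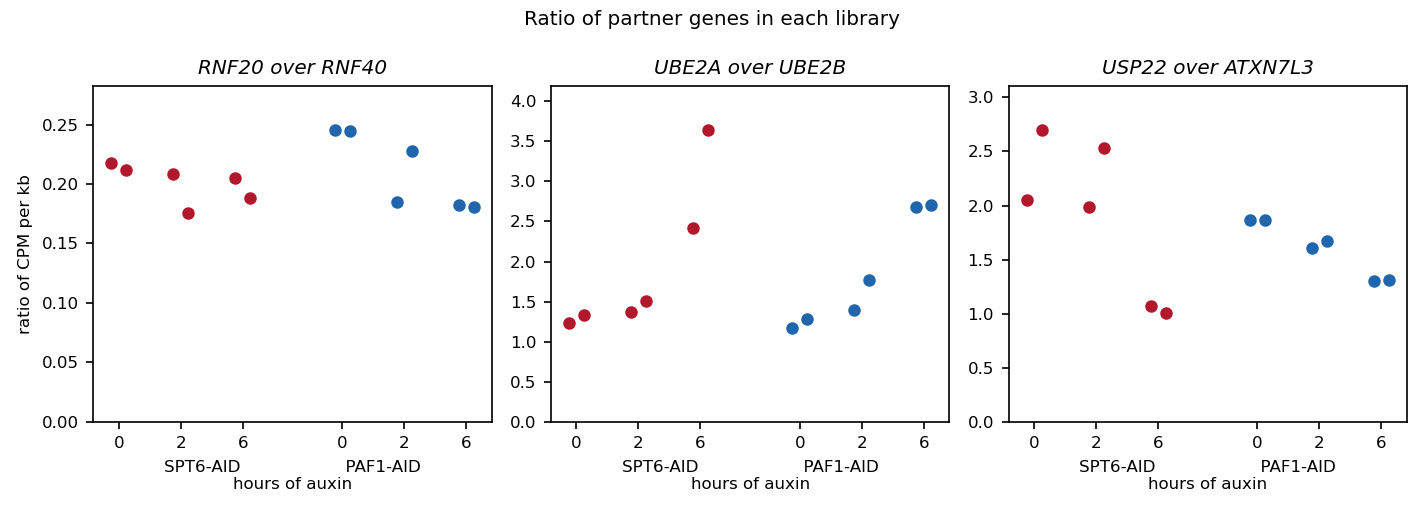
Ratio of partner genes in CPM per kb (vertical axis, from 0) in each of the 12 libraries by line and hours of auxin (horizontal axis); each point is 1 library. UBE2A over UBE2B climbs to between 2.41 and 3.64 at 6 h, USP22 over ATXN7L3 is down to between 1.00 and 1.31 at 6 h, and RNF20 over RNF40 lies between 0.176 and 0.246 in all libraries, lower at 6 h than at 0 h in both lines.

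RNF20 and RNF40, the ring-finger proteins that pair to form the E3 ligase, were not called in any comparison. RNF20 (chr9:101533851-101563344, plus strand) had 43.5 and 39.7 CPM in SPT6-AID 0h, 41.5 and 35.3 CPM in SPT6-AID 2h, and 36.5 and 33.4 CPM in SPT6-AID 6h. It had 34.3 and 41.3 CPM in PAF1-AID 0h, 33.2 and 40.0 CPM in PAF1-AID 2h, and 31.4 and 29.7 CPM in PAF1-AID 6h. Both 6 h groups lay under their 0 h groups without overlap, by a margin close to the spread between libraries. The log2 fold change was -0.25 ± 0.15 in SPT6-AID 6h against 0h (95% interval -0.59 to 0.09, edgeR adjusted p = 0.272) and -0.31 ± 0.15 in PAF1-AID 6h against 0h (95% interval -0.65 to 0.03, edgeR adjusted p = 0.242). RNF40 (chr16:30761745-30776307, plus strand) had 268 and 251 CPM in SPT6-AID 0h, 267 and 269 CPM in SPT6-AID 2h, and 239 and 238 CPM in SPT6-AID 6h. It had 187 and 226 CPM in PAF1-AID 0h, 241 and 235 CPM in PAF1-AID 2h, and 231 and 221 CPM in PAF1-AID 6h. The PAF1-AID groups at 0 and 6 h overlapped. Its log2 fold change was -0.12 ± 0.12 in SPT6-AID 6h against 0h (95% interval -0.38 to 0.14) and 0.13 ± 0.12 in PAF1-AID 6h against 0h (95% interval -0.13 to 0.39). The ratio of RNF20 to RNF40 in CPM per kb was 0.205 and 0.188 in SPT6-AID 6h, against 0.218 and 0.212 in SPT6-AID 0h, and 0.182 and 0.180 in PAF1-AID 6h, against 0.246 and 0.245 in PAF1-AID 0h, lower at 6 h without overlap in both lines. RNF40 thus had the more abundant RNA of the ligase genes in all 12 libraries. Of 6523 exon bases, RNF40 shares 857 with CCDC189 on the other strand, a gene with 48 to 170 counts per library. It shares 2219 with AC106886.4, also on the other strand, which had 1 to 15 counts per library.

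WAC, the adaptor of the ligase, had the most negative estimate of the 10 members in SPT6-AID 6h against 0h. It lies at chr10:28532493-28623112 on the plus strand, a span of 90620 bases. WAC had 193 and 198 CPM in SPT6-AID 0h, 157 and 159 CPM in SPT6-AID 2h, and 80.0 and 57.4 CPM in SPT6-AID 6h. It had 189.8 and 237 CPM in PAF1-AID 0h, 163 and 205 CPM in PAF1-AID 2h, and 139 and 167 CPM in PAF1-AID 6h. The 3 SPT6-AID groups did not overlap, and in PAF1-AID cells the 6 h libraries lay under both 0 h libraries but replicate 4 at 6 h lay above replicate 3 at 2 h. The log2 fold change was -1.50 ± 0.19 in SPT6-AID 6h against 0h (edgeR adjusted p = 0.000436), which placed WAC under all but 3.05% of the genes tested. The PAF1-AID estimate at 6 h was -0.48 ± 0.18 (95% interval -0.89 to -0.07, edgeR adjusted p = 0.133), which did not pass. The difference between the responses was -1.03 ± 0.26, more negative in SPT6-AID cells, with an adjusted p of 0.0612 (edgeR, Benjamini-Hochberg), so it did not pass either. WAC-AS1, which shares 251 exon bases with WAC on the other strand, had a log2 fold change of -0.42 ± 0.19 in SPT6-AID 6h against 0h (edgeR adjusted p = 0.133) and -0.64 ± 0.19 in PAF1-AID 6h against 0h (edgeR adjusted p = 0.0547).

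USP22, the SAGA protease, lies at chr17:20999593-21043760 on the minus strand and was the most abundant member per kilobase at 0 h. It had 297 and 289 CPM in SPT6-AID 0h, 262 and 270.0 CPM in SPT6-AID 2h, and 154 and 93.0 CPM in SPT6-AID 6h. It had 295 and 291 CPM in PAF1-AID 0h, 258 and 257 CPM in PAF1-AID 2h, and 186 and 192 CPM in PAF1-AID 6h. In each line the 3 time points did not overlap, and the lowest of all 12 libraries was replicate 2 of SPT6-AID 6h, the shallowest. The log2 fold change was -1.25 ± 0.19 in SPT6-AID 6h against 0h (edgeR adjusted p = 0.00108). At 6 h in PAF1-AID cells it was -0.63 ± 0.19 (95% interval -1.05 to -0.22), and its edgeR adjusted p of 0.0556 missed the threshold. USP22 passed there in DESeq2's Wald test (adjusted p = 0.0243) and in a fit of the PAF1-AID libraries alone (edgeR adjusted p = 0.0102). The difference between the responses was -0.61 ± 0.26 (95% interval -1.20 to -0.03, edgeR adjusted p = 0.281).

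No change was called for the subunits that hold USP22 in place. ATXN7L3 (chr17:44191805-44200113, minus strand) had 113 and 83.8 CPM in SPT6-AID 0h, 103 and 83.3 CPM in SPT6-AID 2h, and 112 and 72.5 CPM in SPT6-AID 6h. It had 124 and 122 CPM in PAF1-AID 0h, 126 and 120.3 CPM in PAF1-AID 2h, and 112 and 115 CPM in PAF1-AID 6h. Within SPT6-AID cells replicate 1 was above replicate 2 at all 3 times, by more than any difference between times. Its log2 fold change was -0.09 ± 0.21 in SPT6-AID 6h against 0h (95% interval -0.55 to 0.36) and -0.12 ± 0.21 in PAF1-AID 6h against 0h (95% interval -0.57 to 0.34). ENY2, a small protein that also serves in mRNA export, had 58.4 and 72.6 CPM in SPT6-AID 0h, 58.8 and 76.2 CPM in SPT6-AID 2h, and 66.9 and 96.0 CPM in SPT6-AID 6h. It had 71.6 and 78.5 CPM in PAF1-AID 0h, 66.1 and 78.1 CPM in PAF1-AID 2h, and 79.4 and 84.2 CPM in PAF1-AID 6h. Here replicate 2 was above replicate 1 at all 3 times in SPT6-AID cells, and the SPT6-AID groups overlapped. The log2 fold change of ENY2 was 0.31 ± 0.20 in SPT6-AID 6h against 0h (95% interval -0.12 to 0.75, edgeR adjusted p = 0.285) and 0.12 ± 0.20 in PAF1-AID 6h against 0h (95% interval -0.31 to 0.56, edgeR adjusted p = 0.758). The ratio of USP22 to ATXN7L3 in CPM per kb was 1.07 and 1.00 in SPT6-AID 6h, against 2.05 and 2.70 in SPT6-AID 0h, and 1.30 and 1.31 in PAF1-AID 6h, against 1.87 and 1.86 in PAF1-AID 0h. The ratio of USP22 to ENY2 was 2.30 and 0.970 in SPT6-AID 6h, against 5.09 and 3.99 in SPT6-AID 0h, and 2.34 and 2.29 in PAF1-AID 6h, against 4.13 and 3.71 in PAF1-AID 0h. Both ratios were lower at 6 h in every library than in any 0 h library of its line.

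Promoter windows of 190 bases, from 250 to 61 bases before the gene start given by RefSeq on GRCh38.p14, were matched for 7 of the 10 members. The windows of USP22 and RNF20 are shown. Both lie outside every annotated exon, and both hold the letters of the cyclic AMP response core. They lie at chr17:21043072-21043261 (minus strand) and chr9:101533603-101533792 (plus strand), and the USP22 window falls inside the span of the gene in GENCODE 29, whose outermost start is farther upstream than that of RefSeq. Capitals mark the motifs searched on both strands, which may overlap: the GC box GGGCGG, the CCAAT box, the cyclic AMP response core TGACGT, the ETS core CGGAAG and the TATA box as TATAAA.
USP22: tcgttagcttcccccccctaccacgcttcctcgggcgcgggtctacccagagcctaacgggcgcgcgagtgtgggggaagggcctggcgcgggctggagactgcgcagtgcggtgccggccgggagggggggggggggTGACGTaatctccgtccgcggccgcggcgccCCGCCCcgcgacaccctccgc
RNF20: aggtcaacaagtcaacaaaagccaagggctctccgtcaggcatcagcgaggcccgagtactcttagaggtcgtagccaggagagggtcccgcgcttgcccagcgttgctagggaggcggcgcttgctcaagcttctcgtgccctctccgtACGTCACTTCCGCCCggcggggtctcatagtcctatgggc
Of 35116 RefSeq windows of the same length, 4.32% held the cyclic AMP response core, 33.0% the GC box, 25.8% the CCAAT box, 10.7% the ETS core and 7.40% the TATA box. No window of RNF40, UBE2A, WAC, ATXN7L3 or USP49 held the cyclic AMP response core. The USP22 and RNF20 windows were picked for holding it, so its share is no measure of enrichment. Both windows also held the GC box, and the RNF20 window held the ETS core, while the CCAAT and TATA boxes were in neither. The G+C content was 76.3% in the USP22 window and 62.1% in the RNF20 window, against a median of 56.8% over all windows. A match is a run of letters and not a binding site, and the part of any motif in the changes was not tested.

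The proteases outside SAGA were scarce. USP49 (chr6:41789896-41895361, minus strand) had 7.98 and 6.90 CPM in SPT6-AID 0h, 7.26 and 6.63 CPM in SPT6-AID 2h, and 8.76 and 7.96 CPM in SPT6-AID 6h. It had 9.11 and 7.52 CPM in PAF1-AID 0h, 6.19 and 7.66 CPM in PAF1-AID 2h, and 9.52 and 8.91 CPM in PAF1-AID 6h. The 0 and 6 h groups overlapped in both lines, and the log2 fold change at 6 h was 0.17 ± 0.19 in SPT6-AID cells (95% interval -0.25 to 0.59) and 0.15 ± 0.19 in PAF1-AID cells (95% interval -0.27 to 0.57). The span of USP49 was 105466 bases, and a relation between span and change was not tested. USP44 (chr12:95516560-95551490, minus strand) ran from 0.0228 to 0.489 CPM over the 12 libraries. With so few counts its 95% interval at 6 h reached from -1.42 to 2.49 in SPT6-AID cells and from -2.58 to 2.08 in PAF1-AID cells, so no change was detectable at this depth.

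**Figure D3:**
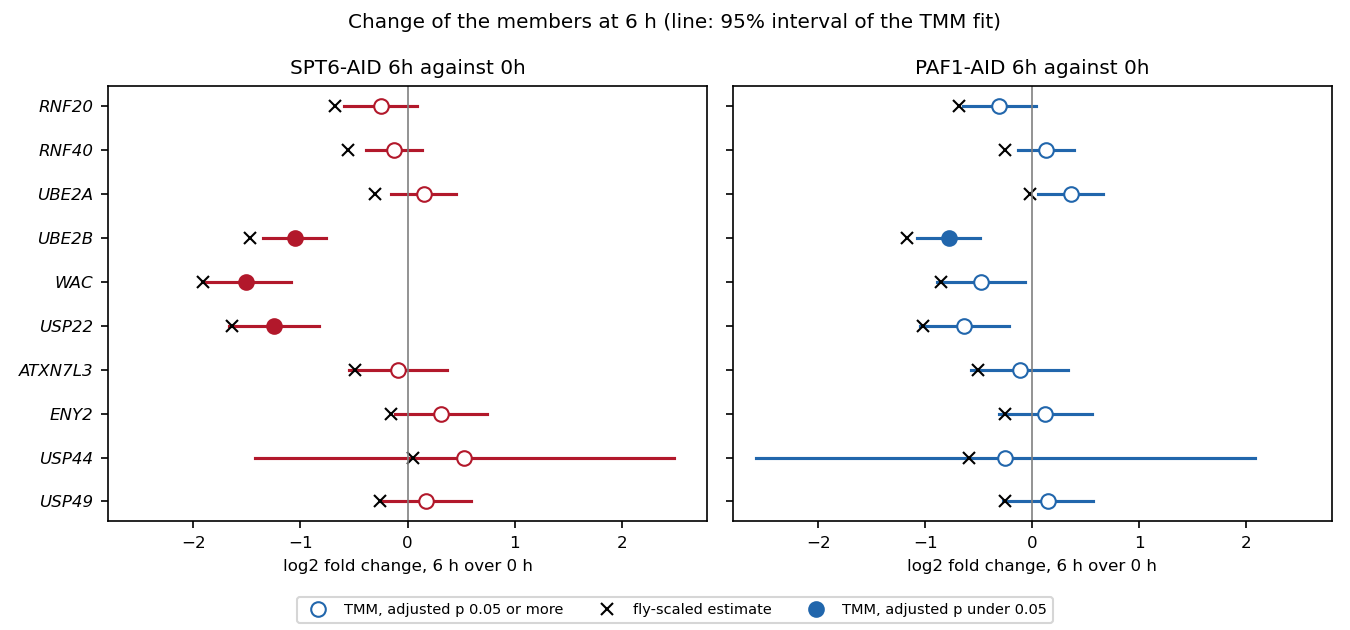
Log2 fold change of each of the 10 genes (vertical axis) at 6 h over 0 h (horizontal axis) in SPT6-AID cells (left) and PAF1-AID cells (right). Circles are the TMM-scaled estimates with their 95% intervals, filled where the adjusted p was under 0.05, and crosses are the estimates scaled to fly counts, which lie left of the circles for all 10 genes in both lines.

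At 2 h against 0 h no member was called in either line. The edgeR fit called 0.548% of all genes in SPT6-AID cells and 0.149% in PAF1-AID cells. DESeq2's Wald test called no member either, beside 3.19% and 1.63% of the genes it tested. The most negative estimate at 2 h outside USP44 was that of WAC in SPT6-AID cells (-0.31 ± 0.18, edgeR adjusted p = 0.98) and of USP49 in PAF1-AID cells (-0.26 ± 0.19, edgeR adjusted p = 0.959). In SPT6-AID 6h against 2h UBE2B, WAC and USP22 fell, with log2 fold changes of -0.90, -1.20 and -1.11 (edgeR adjusted p = 0.00242, 0.00291 and 0.00429), where 15.7% of all genes were called and 10.4% were called lower. In PAF1-AID 6h against 2h no member was called, with 0.875% of all genes called, and UBE2B was nearest with -0.55 ± 0.13 (edgeR adjusted p = 0.086). For the differences between the lines' responses no member was called at 2 h, where 0.0337% of all genes were called, or at 6 h, where 3.74% were called. Without replicate 1 of SPT6-AID 6h, that group held only replicate 2, the shallowest library. The differences at 6 h were then -1.25 for WAC and -0.98 for USP22, against -1.03 and -0.61 with all libraries. These differences thus depended on that replicate. At an unadjusted p under 0.05 the genes numbered 1542 in SPT6-AID 2h against 0h, 1537 in PAF1-AID 2h against 0h, 2881 in PAF1-AID 6h against 2h, 3369 for the difference at 6 h, 526 for the difference at 2 h and 1372 between the lines at 0 h.

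All libraries also held fly counts, 1661945 to 5564723 per library, but the amount of fly material and how it was added are not given in the sources used here. Scaled to the fly counts, the median of all genes lay at -0.39 instead of 0.04 in SPT6-AID 6h against 0h and at -0.37 instead of 0.02 in PAF1-AID 6h against 0h. On that scale UBE2B, WAC and USP22 were at -1.47, -1.91 and -1.64 in SPT6-AID 6h against 0h, and RNF20 (-0.68) and RNF40 (-0.56) also passed (edgeR adjusted p = 0.0292 and 0.0132). With that scaling 32.7% of all genes were called in SPT6-AID 6h against 0h and 15.2% in PAF1-AID 6h against 0h. UBE2A (-0.30), ENY2 (-0.15) and USP49 (-0.26) changed sign there without passing. Of the PAF1-AID estimates at 6 h, UBE2B (-1.17), USP22 (-1.02), WAC (-0.85) and RNF20 (-0.69) passed on the fly scale, the last with an edgeR adjusted p of 0.04997, and UBE2A stood at -0.02. Set against the median of all genes on the same scale, UBE2B, WAC and USP22 stayed lower in both lines. The share of mitochondrial counts also differed between times. It was 2.39% and 2.45% in SPT6-AID 0h, 2.56% and 2.68% in SPT6-AID 2h, and 3.85% and 3.92% in SPT6-AID 6h. It was 1.63% and 2.16% in PAF1-AID 0h, 2.65% and 2.54% in PAF1-AID 2h, and 3.16% and 2.22% in PAF1-AID 6h, so the 6 h libraries of this line fell on either side of the 2 h ones. Its part in the members' changes was not tested.

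The genes around the members were described by 7 lists with 66 genes. At 2 h none of their genes was called in either line. At 6 h against 0 h their counts stand beside 16.4% of all genes called lower in SPT6-AID cells and 6.7% in PAF1-AID cells, and beside 28.1% and 13.8% when scaled to fly counts. Of the other ubiquitin proteases reported to act on H2B, 8 of 9 were tested, and in SPT6-AID 6h against 0h 5 were lower and none higher, with a median log2 fold change of -0.85. Among them USP3 (-0.96 ± 0.12), USP12 (-0.93 ± 0.15) and USP36 (-0.90 ± 0.17) fell on the log2 scale (edgeR adjusted p = 0.000428, 0.00142 and 0.00337). None of the 8 was called in PAF1-AID 6h against 0h, and the median there was -0.04. Scaled to fly counts, all 8 were lower in SPT6-AID 6h (median -1.26) and none was called in PAF1-AID 6h (median -0.42). By TMM the responses of USP3 and USP36 were more negative in SPT6-AID than in PAF1-AID cells (difference -0.86 ± 0.17 and -1.18 ± 0.24, edgeR adjusted p = 0.0255 and 0.0277). These genes were the only ones of the list to pass that test and were picked out after their values were seen. For this difference 3.74% of all genes were called by TMM, but only 0.077% when scaled to fly counts.

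Of the 21 SAGA subunits outside the deubiquitylase members, 6 were lower and none higher in SPT6-AID 6h against 0h, with a median of -0.23. TADA1, a subunit of the SAGA core (-1.93 ± 0.25), the ataxin-7-like subunit ATXN7L2 (-0.97 ± 0.19) and the TAF-like core subunit TAF6L (-0.95 ± 0.17) fell (edgeR adjusted p = 0.000515, 0.00388 and 0.00257). Lower in PAF1-AID 6h against 0h were 2 subunits, namely SUPT20H (-1.41 ± 0.23) and TAF6L (-1.07 ± 0.17), with edgeR adjusted p of 0.00446 and 0.00409, and the median was 0.01. SUPT20H fell in SPT6-AID 6h as well (-1.15 ± 0.23, edgeR adjusted p = 0.00445). Scaled to fly counts, 11 of the 21 were lower in SPT6-AID 6h (median -0.66) and 6 in PAF1-AID 6h (median -0.38). Of 6 other partners of ENY2, ATXN7L3B, a cytoplasmic protein that competes with ATXN7L3 for ENY2, fell in SPT6-AID 6h (-2.05 ± 0.18) and in PAF1-AID 6h (-0.88 ± 0.17), each against 0 h (edgeR adjusted p = 0.000123 and 0.0113). MCM3AP, the scaffold of the TREX-2 mRNA export complex, fell in SPT6-AID 6h (-0.38 ± 0.10) and in PAF1-AID 6h (-0.39 ± 0.10) (edgeR adjusted p = 0.0227 and 0.039). The centrin CETN3 fell by 1.02 ± 0.16 in PAF1-AID 6h (edgeR adjusted p = 0.00383) and stood at 0.12 ± 0.15 in SPT6-AID 6h (edgeR adjusted p = 0.606), or -0.32 when scaled to fly counts. In SPT6-AID 6h 2 of the 6 were lower (median -0.06) and in PAF1-AID 6h 3 of the 6 (median -0.36), and scaled to fly counts these were 3 (median -0.50) and 4 (median -0.75).

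Upstream of the mark, 3 of the 6 PAF1 complex genes were lower and 1 higher in SPT6-AID 6h against 0h, with a median of -0.56, while in PAF1-AID 6h against 0h 1 was higher and none lower, with a median of 0.21. RTF1, whose protein stimulates the ligase, fell by 0.77 ± 0.17 in SPT6-AID 6h (edgeR adjusted p = 0.00704) and had a log2 fold change of 0.25 ± 0.16 in PAF1-AID 6h (edgeR adjusted p = 0.393). The difference between the responses of RTF1 was -1.01 ± 0.23 by TMM (edgeR adjusted p = 0.0424), where 3.74% of all genes were called, but only 0.077% on the fly scale. By TMM 2 of the 6 genes, RTF1 among them, were called lower for this difference and none higher. CTR9, the scaffold of the complex, was higher by 0.87 ± 0.13 in PAF1-AID 6h (edgeR adjusted p = 0.00352) and by 0.54 ± 0.13 in SPT6-AID 6h (edgeR adjusted p = 0.0115). Scaled to fly counts these estimates were 0.48 and 0.09, and the second no longer passed (edgeR adjusted p = 0.654). The PAF1 complex list was thus higher in the median in PAF1-AID 6h by TMM but lower (-0.18) when scaled to fly counts, where 1 was higher and 1 lower. In SPT6-AID 6h 4 of the 6 were lower on that scale and none higher (median -0.99). Named after their values were seen, LEO1 (-1.72) and CDC73 (-1.45) fell further there than RTF1 (-1.18), and PAF1 (-0.80) less.

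Downstream of the mark, 9 of the 14 genes of the H3K4 and H3K79 methyltransferase complexes were lower and 1 higher in SPT6-AID 6h against 0h, with a median of -0.73. WDR82, which tethers SET1 complexes to RNA polymerase II (-1.73 ± 0.19), the DOT1L partner MLLT10 (-1.62 ± 0.16) and the core subunit RBBP5 (-1.05 ± 0.14) fell (edgeR adjusted p = 0.000248, 0.000191 and 0.000546). At 6 h in PAF1-AID cells 2 were lower and 1 higher, with a median of -0.02: WDR82 (-1.29 ± 0.19) and MLLT10 (-0.70 ± 0.16) fell (edgeR adjusted p = 0.00307 and 0.021). CXXC1, the CpG-binding subunit of SET1 complexes, was higher by 0.40 ± 0.11 in PAF1-AID 6h (edgeR adjusted p = 0.0382) and, named after its value was seen, by 0.56 ± 0.11 in SPT6-AID 6h (edgeR adjusted p = 0.0036), but not on the fly scale, where it stood at 0.01 and 0.12. On the fly scale 11 of the 14 were lower in SPT6-AID 6h (median -1.15) and 4 in PAF1-AID 6h (median -0.41), and none was higher.

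**Figure D4:**
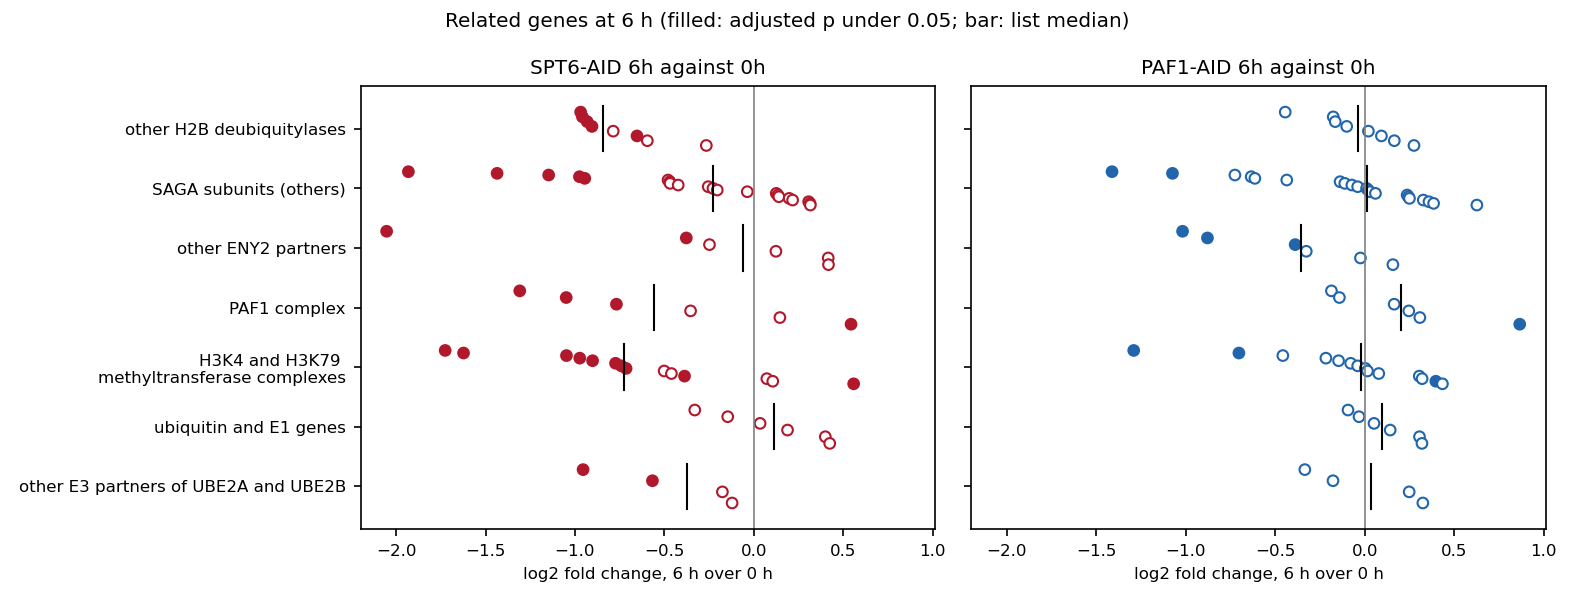
Log2 fold change at 6 h over 0 h (horizontal axis) of the genes in 7 related lists (vertical axis) in SPT6-AID cells (left) and PAF1-AID cells (right), by TMM. Each point is 1 gene, filled where the adjusted p was under 0.05, and each bar is the list median, which lies at -0.85 for the other H2B deubiquitylases in SPT6-AID cells and at -0.04 in PAF1-AID cells.

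None of the 6 ubiquitin and E1 genes was called at 6 h in either line, with medians of 0.11 in SPT6-AID cells and 0.10 in PAF1-AID cells that turned to -0.34 and -0.28 when scaled to fly counts. UBA1, the main ubiquitin-activating enzyme, had log2 fold changes of 0.19 ± 0.13 in SPT6-AID 6h and 0.31 ± 0.13 in PAF1-AID 6h (edgeR adjusted p = 0.329 and 0.165). On the fly scale 2 of the 6 were called lower in SPT6-AID 6h and none in PAF1-AID 6h. Of 4 other E3 ligases that work with UBE2A or UBE2B, UBR2, a ligase of the N-degron pathway (-0.95 ± 0.11), and RAD18, a ligase of DNA damage tolerance (-0.57 ± 0.16), fell in SPT6-AID 6h against 0h (edgeR adjusted p = 0.000332 and 0.0225). None of the 4 was called in PAF1-AID 6h against 0h. Scaled to fly counts, 2 were lower in SPT6-AID 6h and 1 in PAF1-AID 6h.

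The genes whose changes lay nearest to those of the ligase genes were sought over the 8 auxin libraries, each set against the mean of its own line at 0 h, among the 10430 genes whose log2 CPM averaged 3 or more. Nearest to RNF20 were TMEM62, HNRNPR and SMC4, at a root-mean-square difference of 0.0800, 0.0803 and 0.0861 on the log2 scale. RNF40 stood at rank 2626 for RNF20 with 0.291. Nearest to RNF40 were GMIP, CDK16 and SIRT6, at 0.0408, 0.0416 and 0.0475, and RNF20 stood at rank 4300. The libraries of a line share their 0 h mean, so these distances are a description.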

How the data were processed

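Read counts per gene were deposited for 12 libraries and were not normalized by the authors. Per the labels' protocols, RNA was poly(A)-selected and made into directional libraries. The tools named per the submitters' processing notes are featureCounts 2.0.0, STAR 2.7.5 and cutadapt 1.14, and the builds are GRCh38 for human and BDGP6 for fly. The strand setting is not given in the sources used here, so antisense neighbours are uncertain. The deposited table also gives a transcript length per gene, used for CPM per kb.

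Libraries of a group differed beyond sampling noise (chi-square over its degrees of freedom 34.6 to 64.0). Human genes passing filterByExpr (20791) were scaled by TMM and fitted in edgeR 4.0.16 (R 4.3.3) with 6 group means, 6 residual degrees of freedom and 9 comparisons, using the quasi-likelihood test with Benjamini-Hochberg adjustment over all genes. Standard errors were taken as log2 fold change over root F. The alternatives were DESeq2 1.42.0 size factors and its Wald test, total counts, fly totals, no filter, a mean of at least 1 CPM, the line alone, a replicate block, and each library left out, refiltered or with the genes of the full fit. Where 1 library of a group was left, it was taken to vary as the other groups do. The edgeR fit was tested on counts simulated from the real means. For changes of 1.5, 2 and 4 fold it recovered 6%, 36% and 88% in SPT6-AID 6h against 0h, with 9 of 120 calls false. In PAF1-AID 2h against 0h it recovered 0%, 46% and 90%, with 12 of 129 calls false. A gene not called may thus have changed by 2 fold.

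The members and lists were chosen with earlier results of these data known. Named genes were all members, up to 3 called genes per list and comparison with 0 h, and the 3 genes nearest to RNF20 and to RNF40 (mean log2 CPM of at least 3, prior count 2); others are said to be picked later. Positions are from GENCODE 29.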

Additional observations from a re-analysis of the deposited data

How the results depend on the processing

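UBE2B, WAC and USP22 in SPT6-AID 6h against 0h and against 2h kept their direction and stayed past the threshold in all 32 alternatives, with a highest adjusted p over the edgeR and DESeq2 fits of 0.0194 against 0 h and 0.044 against 2 h. UBE2B in PAF1-AID 6h against 0h stayed past it in 30 of 32 and missed it without replicate 3 of PAF1-AID 6h. Most of the 32 alternatives leave out 1 library, each refiltered and again with the genes of the full fit, so they are not independent checks. Those without a PAF1-AID library leave the SPT6-AID groups whole. Members called in SPT6-AID 6h against 0h numbered 3, but 5 with fly totals, where 32.7% of all genes were called. In PAF1-AID 6h against 0h they numbered 1, but 2 with DESeq2's Wald test, with no filter and with the line alone. In these settings 14.7%, 7.36% and 12.6% of all genes tested were called. With fly totals they numbered 4 (15.2% of all genes), and the count moved in both directions when a library was left out. In PAF1-AID 6h against 2h the count was 0, but 1 with DESeq2's Wald test (4.9% of all genes). For the difference between responses at 6 h it was 0, but 1 with no filter or DESeq2's Wald test (WAC each time), beside 3.43% and 7.09% of all genes. Without replicate 1 of SPT6-AID 6h, which left 1 library in that group, the differences of WAC (-1.25) and USP22 (-0.98) were more negative. The causes of these shifts were not tested. Of the uncalled values, 155 of 2608 pairs of value and alternative changed sign and 35 gained a call. Of 168 list counts under other settings 11 moved by over 1.5 times, 6 of them with fly totals.

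The labels share replicate numbers between the times of a line, and same-numbered libraries deviated together (correlations 0.49 to 0.66), but with 2 pairs per comparison this is a hint from the data and not the design. With the number as a block, 5 members were called in SPT6-AID 6h against 0h and 5 in PAF1-AID 6h against 0h, beside 51.4% and 38.3% of all genes. In PAF1-AID 6h against 2h 4 were called, beside 20.1%, and 2 for the difference between responses at 6 h, beside 21.7%. Between the lines at 0 h the block fit set replicate 3 of PAF1-AID against replicate 1 of SPT6-AID, not the line means. Its 2 members and 13.8% of all genes there are thus no count of differences between the lines. With the block ENY2 (0.30) passed as higher and RNF20 (-0.25) as lower in SPT6-AID 6h against 0h (edgeR adjusted p = 0.00684 and 0.0417). In PAF1-AID 6h against 0h UBE2A (0.36) passed as higher, and WAC (-0.48), USP22 (-0.63) and RNF20 (-0.30) as lower (edgeR adjusted p = 0.00216, 0.00152, 0.000854 and 0.0237). The responses of WAC and USP22 at 6 h also differed between the lines (edgeR adjusted p = 7.8e-05 and 0.0168).

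With groups of 2, the 95% intervals of uncalled members other than USP44 span about 0.5 to 0.9 on the log2 scale at 6 h against 0 h, and those of the difference between responses are wider.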
